A study of Arabidopsis thaliana with 4 samples.

Results

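The ERF subfamily comprises plant transcription factors with an AP2/ERF DNA-binding domain, many of which bind the GCC box of defence and stress genes. The 37 members described here were given as a list of loci: ERF1, ERF1A and ERF2 to ERF15, ORA59, ESE1, ESE3, ERF98, ERF104, ERF105, ERF115, the oxygen-sensing RAP2.2, RAP2.3, RAP2.12, HRE1 and HRE2, RAP2.6, RAP2.6L, ABR1, 4 cytokinin response factors (CRF), PUCHI and LEP. All 37 were found among the 33414 loci named in the deposited gene table. Membership was set by locus, but the list was chosen with earlier results of these data known. The annotation of the TAIR10.1 assembly places 35 of them in an ERF subfamily class from B-1 to B-6 and gives CRF5 and CRF6 no such class. Some carry another symbol there, namely EBP for RAP2.3, ERF73 for HRE1, ERF71 for HRE2, TDR1 for ERF98 and ERF-1 for ERF1A.

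Transcript levels were measured by RNA sequencing in whole dark-grown Arabidopsis thaliana seedlings of the Col background with the srt1srt2 double mutation, in which both sirtuin-type deacetylase genes are mutated per the labels. After 3 days in darkness and hydrocarbon-free air at 24 °C, seedlings were kept for 4 hours in that air (2 libraries) or in that air with 10 ppm ethylene (2 libraries). Both groups carry the mutation, and no wild type was analysed here, so no value below shows an effect of the sirtuins. The table's own title names srt1 alone, and the labels were followed. The authors pooled the libraries of a condition into 1 FPKM value per gene, which is the number of fragments scaled to transcript length and to all mapped fragments. Every level below is such a pooled value, the spread between libraries cannot be shown, and depth is unknown.

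In the ethylene pathway, the hormone inactivates its receptors and the kinase CTR1, which lets EIN2 stabilise the transcription factors EIN3 and EIL1. These switch on a first tier of targets that includes ERF1, and ERF proteins act on further genes. The subfamily falls into groups with different activities. Group IX (class B-3) holds mainly activators of defence and stress genes. Group VIII (class B-1) holds repressors with an EAR motif, which recruits TOPLESS-type co-repressors and histone deacetylases, beside the developmental regulators PUCHI and LEP. Group VII (class B-2) holds factors that are degraded through an N-terminal cysteine while oxygen is present and that activate hypoxia genes. Group X (class B-4) holds stress, wound and regeneration factors, group VI the cytokinin response factors, and group V includes ESE3.

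Coding features that define the oxygen-sensing and the repressor group are shown first, because the abundance results below turn on these groups. All 5 group VII genes open with codons for methionine, cysteine, glycine and glycine, and the cysteine at this place is what the oxygen-dependent N-degron pathway recognises. Among 27444 nuclear protein-coding genes of TAIR10.1, 5 had this start, or 0.0182%, and they are these 5 members. The first 24 coding bases are given 5′ to 3′ from the RefSeq TAIR10.1 genome, with the cysteine codon in capitals.
RAP2.2: atgTGTggaggagctataatctcc
RAP2.3: atgTGTggcggtgctattatttcc
RAP2.12: atgTGTggaggagctataatatcc
HRE1: atgTGCggaggagctgtaatttcc
HRE2: atgTGTgggggagctatcatttct

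The 8 repressors of group VIII each carry in-frame codons for aspartate, leucine and asparagine in a row, the core of one form of the EAR motif. That run of codons occurs in 8.21% of all nuclear protein-coding genes and in none of the other members, PUCHI and LEP included. Its last occurrence ends between 3 and 24 codons before the end of the protein. The stretch around it is given 5′ to 3′ with the core codons in capitals, and for ERF10 it runs to the stop codon.
ERF3: caattcGATCTTAATtttccaccgttggat
ERF4: gatctaGATCTTAATttgcctcctccatcg
ERF7: cagtttGATCTTAATttcccgccgttggat
ERF8: gatctgGATCTTAACttagctcctccggcg
ERF9: aacctgGATCTTAACctagctccaccggtg
ERF10: gatcttGACCTCAACgcaagtccctaa
ERF11: gacttgGATCTTAATttccctcctccacct
ERF12: gccattGACCTCAACgagcctccgccgctt

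The members share little exact coding sequence with one another. Over the 666 pairs of members the longest identical coding stretch was 31 bases, between ERF6 and ERF13, and the median over pairs was 11 bases. HRE1, ABR1 and ERF105 each overlap a gene on the opposite strand, and no source used here states whether counting used strand, so their values are uncertain. The table's entries for HRE1 and ABR1 also reach 1963 and 2694 bases past the annotated gene end, across those neighbours. CRF2 has 2 entries with the same span, of which the one with the higher mean is used.

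Ethylene raised 12 of the 37 members, and none was called lower. Here "called" means a q of 0.05 or less in the authors' deposited table, where q is the Cuffdiff p after Benjamini-Hochberg adjustment over all tested entries. Of the members 32 were tested, 20 of these were not called, and 5 (ERF14, ORA59, ESE1, ERF98 and HRE2) were marked as not tested. Over all 21076 tested entries 11.3% were called, 4.81% higher and 6.46% lower, while 37.5% of the tested members were called higher. The members were chosen with earlier results of these data known, so these shares carry no test of the list. In the authors' deposited table, ERF4 was the 1 member lower at an unadjusted Cuffdiff p under 0.05. When the deposited statistic was instead read against a normal curve, 11 members were higher and 0 lower, beside 2.65% and 3.26% of all entries with a numeric statistic. ERF1 has no numeric statistic and drops out of that reading.

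The risers came from 5 of the 6 groups. They were ERF1, ERF2, ERF1A and ERF5 of group IX, ERF9, ERF11 and LEP of group VIII, RAP2.2 and RAP2.3 of group VII, RAP2.6 and RAP2.6L of group X, and ESE3 of group V. On the scale log2((ethylene FPKM + 1)/(air FPKM + 1)), which understates changes of low genes, the median was 0.21 over all 37 members and 0.01 over all tested entries. By group the median was 0.40 in group IX, 0.02 in group VIII, 0.81 in group X and -0.14 in group VI, and in group VII it lay at the value of HRE1, between those of RAP2.12 and RAP2.2. ERF1, ERF2, ERF11, RAP2.3 and RAP2.6 had the largest changes on this scale, at percentiles 99.5, 99.3, 99.2, 99.0 and 98.4 of all tested entries. In whole seedlings, a change in the number of cells that express a gene and a change in RNA per cell cannot be told apart.

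**Figure D1:**
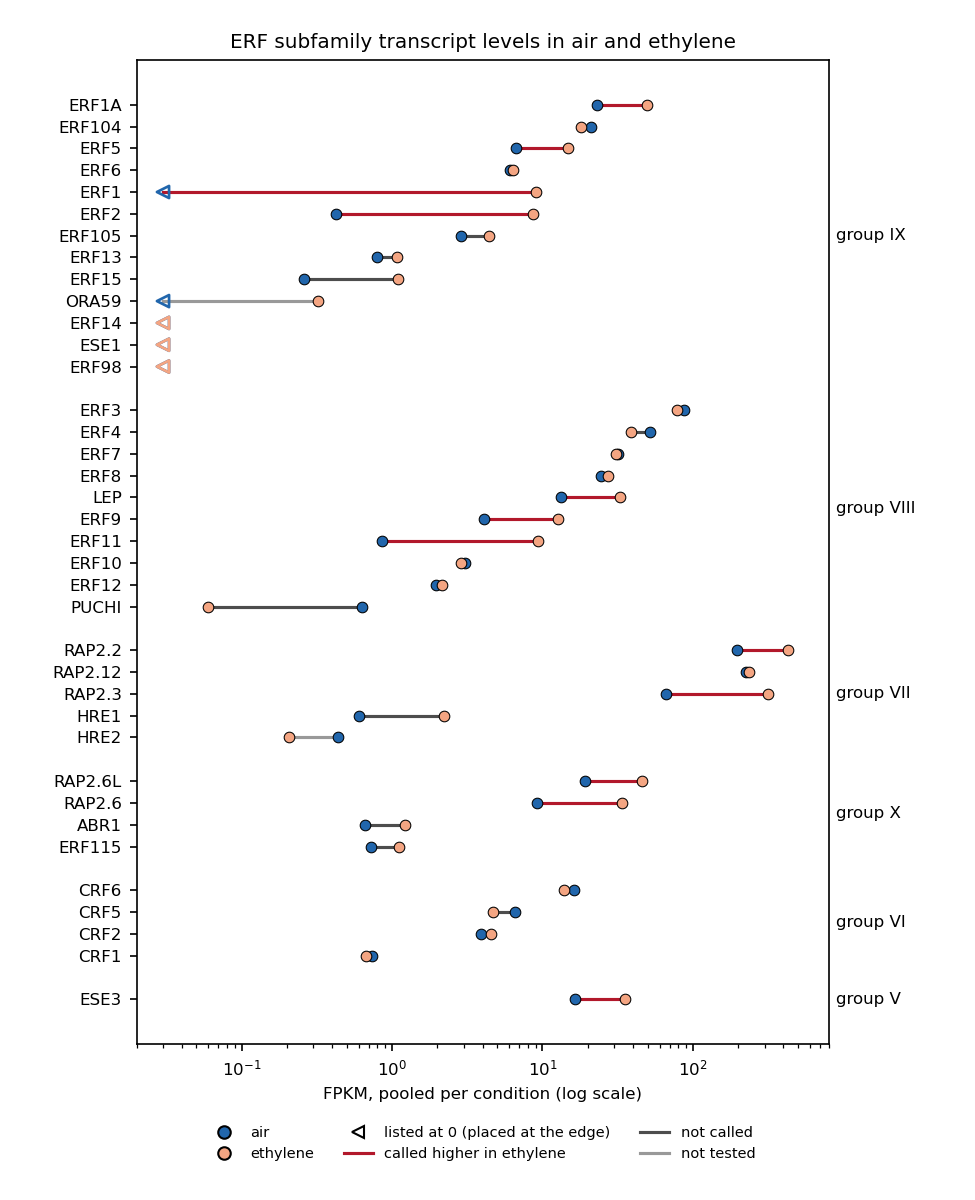
Pooled FPKM of each of the 37 members in air (blue) and ethylene (orange) on a log axis, ordered by group and mean level, with red lines for members called higher and open triangles at the edge for values listed at 0. The 12 red lines all run to higher values in ethylene, and RAP2.2, RAP2.12 and RAP2.3 reach the highest levels, 432, 237 and 316 FPKM in ethylene.

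Group IX, the activators, had 4 of 13 members called higher, 5 tested and not called, and 4 not tested. ERF1 (AT3G23240, TAIR10.1 chromosome 3, 8295617 to 8296604, a gene with 1 exon) is the EIN3 target that joins ethylene and jasmonate signals at defence genes. It was listed at 0 in air and reached 9.07 FPKM under ethylene, so no fold can be stated. By Cuffdiff its q in the authors' deposited table was 0.000878, the smallest value there, which 10 of the 12 risers share. ERF2 (AT5G47220, chromosome 5, 19171643 to 19172956), a GCC-box activator of jasmonate-responsive defence genes, measured 0.426 FPKM in air against 8.60 FPKM under ethylene, 20.2-fold more. Its log2 ratio of ethylene to air was 4.33 (standard error 1.13), and the authors' deposited table gave q = 0.0184 by Cuffdiff. Standard errors are the log2 ratio divided by the deposited statistic. Normal quantiles of the deposited p were, at the median, 1.43 times that statistic. Which scale is intended is unknown, so standard errors given here may be too wide. For ERF2, ERF11 and PUCHI the deposited p is less extreme than a normal curve gives for the statistic. Their standard errors may be too narrow. ERF1 and ERF2 thus moved from under 1 FPKM to nearly the same level, close to 9 FPKM. ERF2 is not called at a q of 0.01 or less.

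The other risers of group IX were already expressed in air. ERF1A, a GCC-box activator, measured 23.1 FPKM in air against 49.2 FPKM under ethylene, and its log2 ratio was 1.09 (standard error 0.265). It had the highest value of the 13 listed members of the group in both conditions. ERF5, which takes part in chitin responses and in the restraint of leaf growth under stress, measured 6.67 FPKM against 14.8 FPKM, 2.22-fold more. ERF6, which acts with ERF5 in leaf growth under stress, measured 6.04 FPKM against 6.33 FPKM and was not called. ERF104, a substrate of the kinase MPK6 in flagellin responses, measured 21.1 FPKM against 18.2 FPKM. Among the 9 tested of the 13 listed members it was the only one with a lower value under ethylene, and its log2 ratio of -0.22 lay within 1 standard error (0.281) of 0.

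The remaining members of group IX were low. ERF105, linked to cold tolerance, measured 2.86 FPKM in air against 4.44 FPKM under ethylene. ERF15, a positive regulator of abscisic acid responses, measured 0.259 FPKM against 1.09 FPKM, and ERF13 measured 0.798 FPKM against 1.08 FPKM. None of these was called, and the standard errors of their log2 ratios were 0.596, 1.56 and 1.19. On the scale of the deposited statistic, 2-fold changes would lie within 2 of these standard errors. AT5G51180, the gene overlapping ERF105, measured 17.3 FPKM against 19.5 FPKM and was not called. ORA59, which like ERF1 joins jasmonate and ethylene signals, was listed at 0 in air and at 0.321 FPKM under ethylene and was not tested. ERF14, a regulator of other defence ERF genes, and the salt-response factors ESE1 and ERF98 were listed at 0 in both conditions.

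Group VIII, the repressors and developmental regulators, had 3 of 10 members called higher. ERF11 (AT1G28370, chromosome 1, 9955774 to 9956980), a repressor of ethylene biosynthesis genes, measured 0.856 FPKM in air against 9.28 FPKM under ethylene, 10.8-fold more. Its log2 ratio was 3.44 (standard error 0.944), and the authors' deposited table gave q = 0.0103 by Cuffdiff, which misses a threshold of 0.01. ERF9, a repressor of defence genes, measured 4.06 FPKM against 12.7 FPKM, 3.12-fold more, with a log2 ratio of 1.64 (standard error 0.434). ERF11 and ERF9 were the called EAR repressors, and both were low in air. LEP, the LEAFY PETIOLE factor of leaf development, measured 13.3 FPKM against 32.8 FPKM, 2.47-fold more.

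The abundant repressors were not called. ERF3, a GCC-box repressor, measured 87.9 FPKM in air against 78.5 FPKM under ethylene. ERF4, a repressor that dampens ethylene and jasmonate responses, measured 51.8 FPKM against 38.6 FPKM, with a log2 ratio of -0.42 (standard error 0.240). Its Cuffdiff q of 0.0925 in the authors' deposited table was the smallest among the members tested and not called. ERF7, which acts with SIN3 in abscisic acid responses, measured 31.9 FPKM against 30.7 FPKM, and ERF8 measured 24.4 FPKM against 27.2 FPKM. These 4 genes made up most of the repressor transcripts in both conditions.

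The last members of group VIII were low and not called. The EAR repressor ERF10 measured 3.06 FPKM in air against 2.85 FPKM under ethylene, and ERF12 measured 1.97 FPKM against 2.16 FPKM. PUCHI, which shapes lateral root primordia and floral meristems, measured 0.635 FPKM against 0.0596 FPKM, and the standard error of its log2 ratio was 2.21. Summed over the 8 EAR repressors, the level was 206 FPKM in air and 202 FPKM under ethylene. Of these 8, 4 had a higher and 4 a lower value under ethylene, and ERF9 and ERF11 supplied more of the sum under ethylene than in air.

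**Figure D2:**
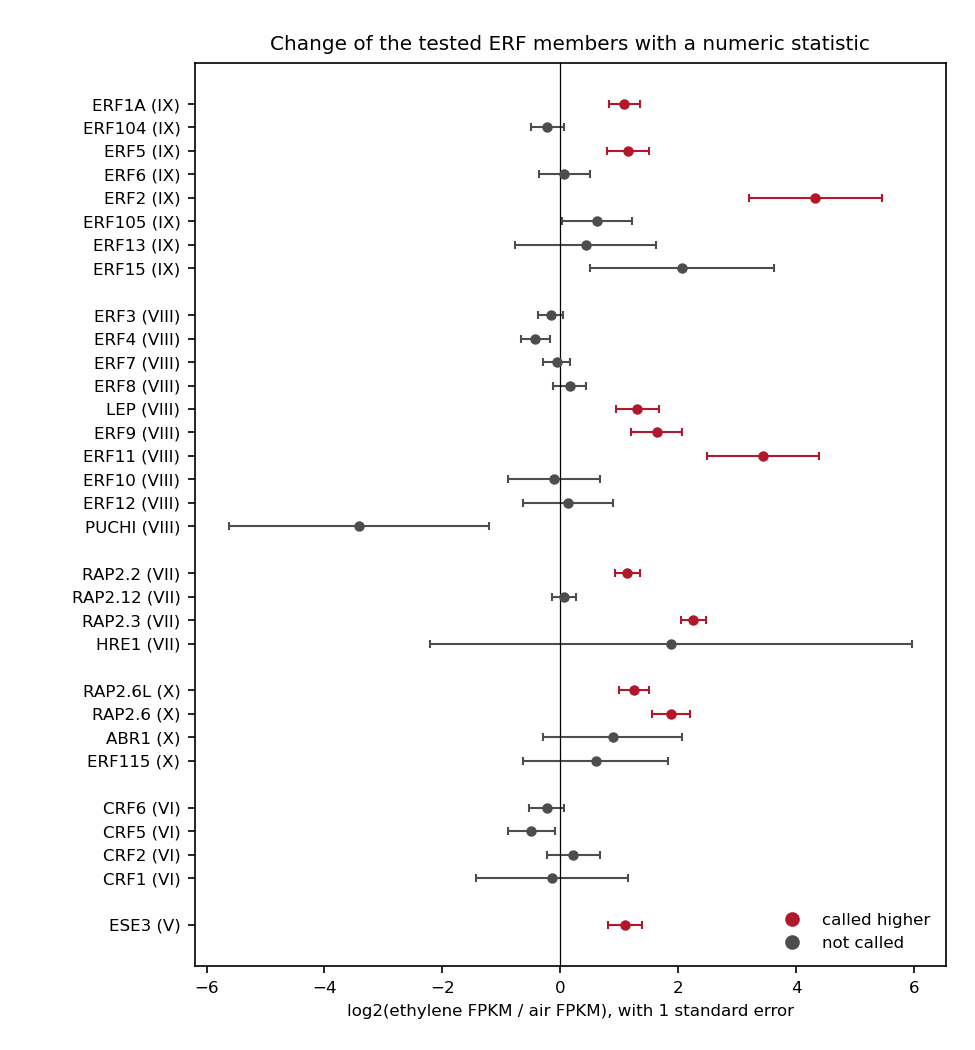
Log2 ratio of ethylene to air FPKM for the 31 tested members with a numeric deposited statistic, with bars of 1 standard error (the ratio divided by that statistic); red points were called higher and grey points were not called. ERF2 and ERF11 show the highest ratios, 4.33 and 3.44, RAP2.3 stands at 2.26 with a short bar, and PUCHI and HRE1 have the widest bars, 2.21 and 4.08.

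Group VII, the oxygen-sensing factors, held the 3 members with the highest mean FPKM and had 2 of 5 members called higher. RAP2.3 (AT3G16770, chromosome 3, 5705541 to 5707084) measured 65.9 FPKM in air against 316 FPKM under ethylene, 4.79-fold more, with a log2 ratio of 2.26 (standard error 0.213). RAP2.2 (AT3G14230, chromosome 3, 4737120 to 4739298), an activator of hypoxia genes, measured 195 FPKM against 432 FPKM, 2.21-fold more, with a log2 ratio of 1.14 (standard error 0.207). RAP2.12 (AT1G53910, chromosome 1, 20134844 to 20137013), a related activator held at the plasma membrane while oxygen is present, measured 226 FPKM against 237 FPKM. It was not called, and its log2 ratio was 0.07 (standard error 0.203). The difference in response between RAP2.12 and its relatives was not tested.

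The hypoxia-inducible members of group VII were low. HRE1 measured 0.600 FPKM in air against 2.21 FPKM under ethylene and was not called. The standard error of its log2 ratio, 4.08, was the widest of the members with one, and its entry spans the opposite-strand gene AT1G72370, which measured 229.8 FPKM against 234 FPKM. HRE2 measured 0.439 FPKM against 0.205 FPKM and was not tested.

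Group VII made up more of the summed level of the 37 members than any other group. Summed FPKM over the 37 members was 843 in air and 1476 under ethylene, 1.75-fold more, and group VII supplied 488 and 987 FPKM of these sums. Its share was 57.9% in air and 66.9% under ethylene. With 24 further ERF subfamily genes added to the sum, its share was 48.1% in air and 60.3% under ethylene. RAP2.3 alone made up 7.81% and 21.4% of the members' sum, while the share of RAP2.12 was 26.8% in air and 16.1% under ethylene at nearly the same level. The EAR repressors made up 24.4% in air and 13.7% under ethylene with nearly the same sum. These shares are descriptions of pooled values and carry no test.

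**Figure D3:**
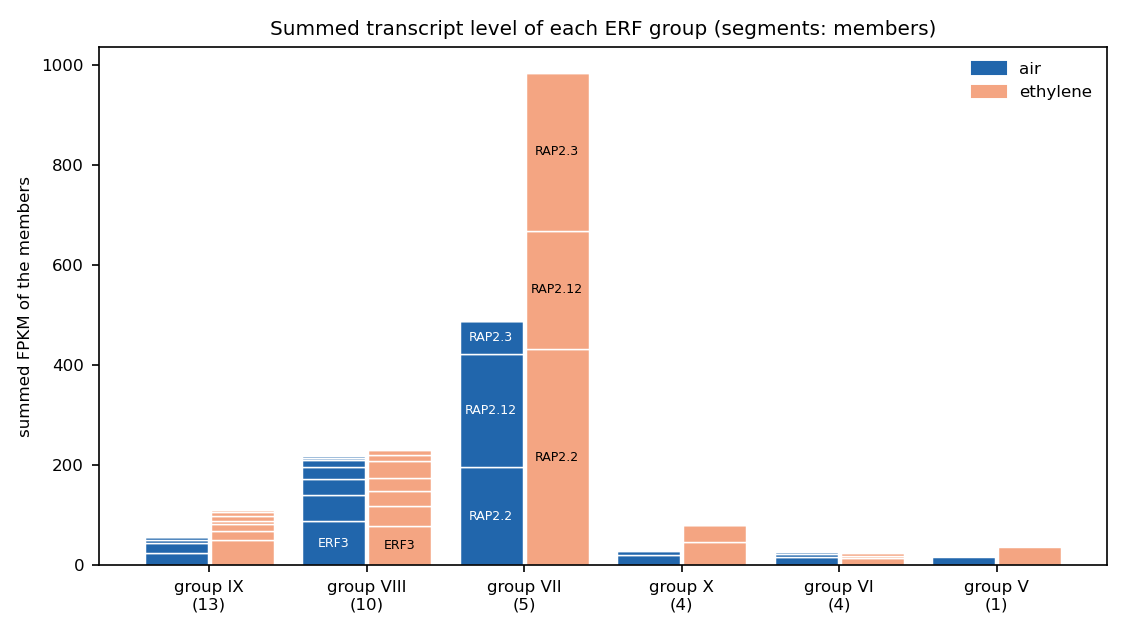
Summed FPKM of the members of each ERF group in air (blue) and ethylene (orange), with white lines between members and the number of members in brackets. The group VII bar stands at 488 FPKM in air and 987 FPKM in ethylene, with larger RAP2.2 and RAP2.3 segments and a RAP2.12 segment of nearly the same height, and the group VIII bars stand at 219.8 and 235 FPKM.

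Group X had 2 of 4 members called higher. RAP2.6, a wound- and stress-responsive factor, measured 9.24 FPKM in air against 33.98 FPKM under ethylene, 3.68-fold more, with a log2 ratio of 1.88 (standard error 0.329). RAP2.6L, which takes part in tissue reunion and shoot regeneration, measured 19.3 FPKM against 45.7 FPKM, 2.37-fold more, with a log2 ratio of 1.25 (standard error 0.253). The uncalled members of the group were near 1 FPKM. ERF115, a regulator of stem cell replenishment in the root, measured 0.729 FPKM against 1.11 FPKM, and ABR1, a repressor of abscisic acid responses, measured 0.661 FPKM against 1.22 FPKM. The standard errors of their log2 ratios were 1.23 and 1.17, and AT5G64760, the gene overlapping ABR1, measured 11.6 FPKM against 14.9 FPKM.

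None of the 4 cytokinin response factors of group VI was called by Cuffdiff, beside 4.81% of all tested entries called higher and 6.46% lower. Of the 4, 0 had an unadjusted p under 0.05 in the authors' deposited table or a call under the normal reading. With so few genes, nothing particular to the group is read from these counts. CRF6, which delays senescence under stress, measured 16.3 FPKM in air against 13.9 FPKM under ethylene, and CRF5 measured 6.56 FPKM against 4.67 FPKM. CRF2 measured 3.91 FPKM against 4.54 FPKM, and CRF1 measured 0.736 FPKM against 0.668 FPKM, with a standard error of 1.28 for its log2 ratio. The smallest Cuffdiff q among them in the authors' deposited table was 0.336, for CRF5. ESE3 (AT5G25190, chromosome 5, 8706745 to 8707885) of group V, named for its induction by ethylene and salt, measured 16.4 FPKM against 35.1 FPKM, 2.14-fold more, and was called.

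The order of FPKM levels among the 37 members, scaled to transcript length, differed between conditions. In air the highest were RAP2.12, RAP2.2, ERF3, RAP2.3 and ERF4, and under ethylene RAP2.2, RAP2.3, RAP2.12, ERF3 and ERF1A. Outside these members, the subfamily gene ERF107 measured 54.8 FPKM in air against 52.4 FPKM under ethylene, above ERF4 in air and ERF1A under ethylene. The table gives no error of a level, so neighbours in these orders could not be compared with their spread. By mean FPKM, RAP2.2, RAP2.12, RAP2.3 and ERF3 stood at percentiles 98.0, 97.1, 96.3 and 90.3 of the tested entries. ERF1, ERF2 and ERF11, the members with the largest changes, had mean levels at percentiles 26.5, 26.4 and 28.6.

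**Figure D4:**
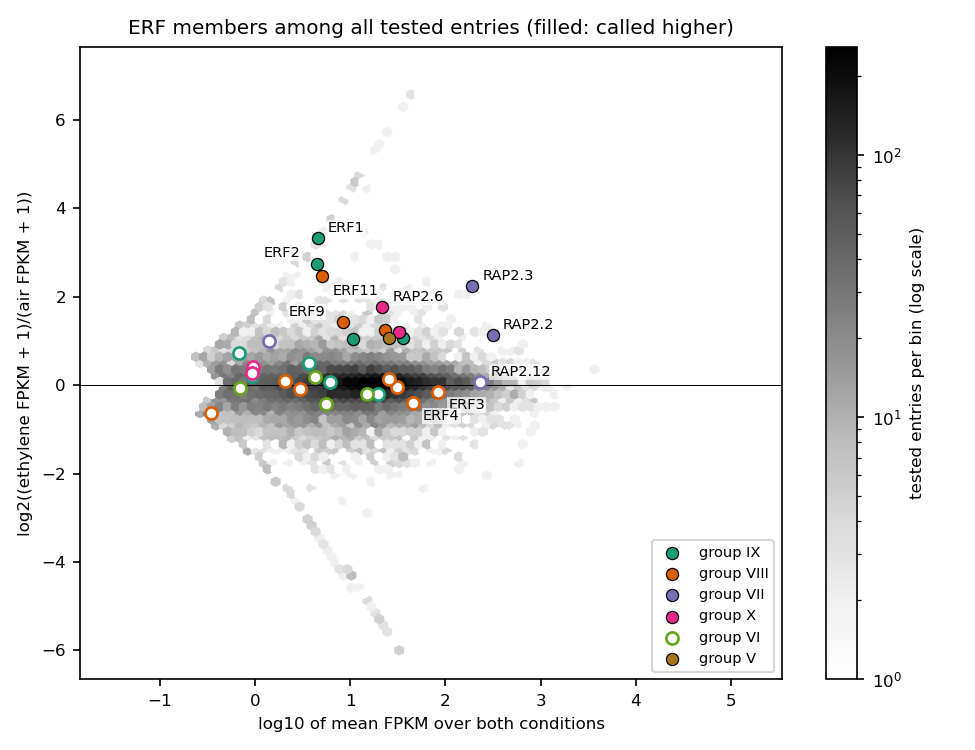
Mean FPKM over both conditions (log10) against log2((ethylene FPKM + 1)/(air FPKM + 1)) for all 21076 tested entries (grey bins, darker for more entries) and the 32 tested members (coloured by group, filled where called higher). The 12 filled points lie between 1.04 and 3.33, and the median of all tested entries is 0.01.

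Several members are chromosomal neighbours, and within 20000 bases 5 neighbouring pairs were found. ERF11 rose while ERF12, 2668 bases away and facing it, was not called. ERF1A rose while ERF6, 5041 bases away and pointing away from it, was not called. ERF2 and ERF5, 6924 bases apart with 1 coding gene between them, both rose. ERF1 rose while ERF98, 5452 bases away, and ESE1, 776 bases beyond ERF98, were listed at 0. The difference between neighbours was not tested.

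Promoters were searched for 3 motifs on both strands in the 1000 bases before each annotated gene start. The EIN3-type site was searched as ATGTATCT, ATGTACCT, ATGCATCT or ATGCACCT. It was present before 3 of the 12 risers (ERF1A, ERF9 and RAP2.6L), 3 of the 20 members not called (ERF4, ERF7 and CRF6) and 12.5% of 27443 nuclear protein-coding genes. The GCC box core GCCGCC, the element ERF proteins bind, was present before 1 riser (ERF11), 4 members not called (ERF12, ERF15, ABR1 and CRF6), 2 not tested (ORA59 and HRE2) and 8.44% of all genes. The G-box CACGTG, bound by basic helix-loop-helix and bZIP factors, was present before 18 of the 37 members, or 48.6%, and before 14.8% of all genes. It stood before 4 of the 12 risers, 10 of the 20 not called and 4 of the 5 not tested. No matches of different motifs overlapped in the members' windows. These are matches of letters, not shown binding sites.

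**Figure D5:**
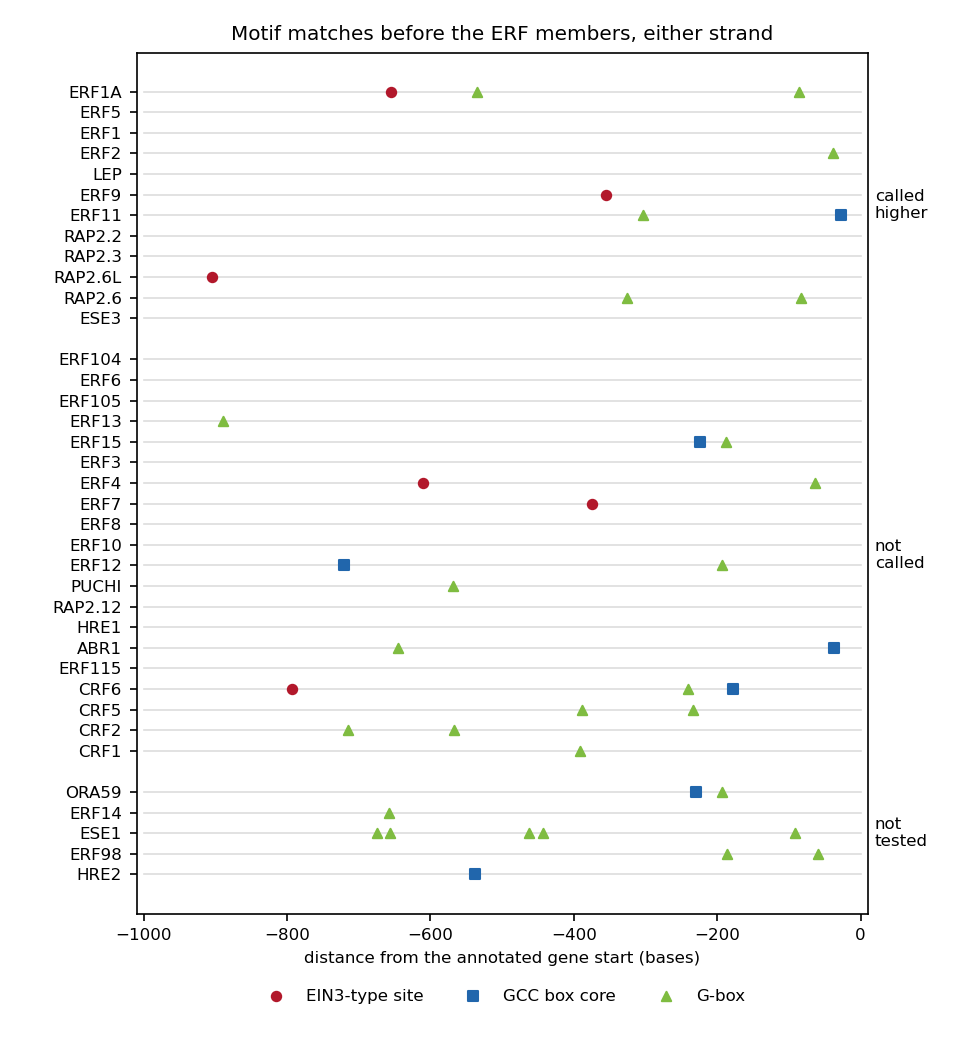
Positions of motif matches in the 1000 bases before the annotated start of each member (x axis in bases from the start, either strand), with members arranged by call. EIN3-type sites (circles) stand before 3 risers and 3 members not called, GCC box cores (squares) before 7 members, and G-boxes (triangles) before 18 of the 37 members.

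The windows of ERF1, ERF2 and ERF11 are printed because these members had the largest changes and reached similar levels under ethylene. Each window runs from 250 bases before to 50 bases after the annotated start, on the gene's strand in TAIR10.1 (RefSeq genome), 5′ to 3′, with motif matches in capitals. The window of ERF11 holds a GCC box core, as do 2.57% of all windows of this length, that of ERF2 a G-box, as do 7.68%, and that of ERF1 none of these letters.
ERF1, chr3:8295367-8295666, plus strand: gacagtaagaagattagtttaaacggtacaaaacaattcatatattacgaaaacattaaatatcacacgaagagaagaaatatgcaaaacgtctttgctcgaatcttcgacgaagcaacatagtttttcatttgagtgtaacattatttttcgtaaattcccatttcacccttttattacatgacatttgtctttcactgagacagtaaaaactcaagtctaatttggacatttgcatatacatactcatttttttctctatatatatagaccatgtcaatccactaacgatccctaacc
ERF2, chr5:19172907-19173206, minus strand: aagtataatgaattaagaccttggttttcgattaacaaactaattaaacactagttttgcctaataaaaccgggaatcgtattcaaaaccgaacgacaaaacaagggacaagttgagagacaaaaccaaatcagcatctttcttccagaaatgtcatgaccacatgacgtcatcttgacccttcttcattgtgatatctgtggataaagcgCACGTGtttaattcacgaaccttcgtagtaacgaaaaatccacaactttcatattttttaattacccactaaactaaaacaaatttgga
ERF11, chr1:9956931-9957230, minus strand: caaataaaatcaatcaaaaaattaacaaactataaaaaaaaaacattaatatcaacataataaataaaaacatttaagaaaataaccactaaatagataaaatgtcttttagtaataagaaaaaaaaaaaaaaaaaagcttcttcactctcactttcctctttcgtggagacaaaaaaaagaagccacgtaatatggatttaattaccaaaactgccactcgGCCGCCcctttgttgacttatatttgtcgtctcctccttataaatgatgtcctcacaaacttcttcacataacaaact

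Of 24 further ERF subfamily genes, 12 were tested, 0 were called higher and 1 was called lower by Cuffdiff. Among all tested entries 4.81% were called higher and 6.46% lower, so nothing particular to this list is read from these counts. In the authors' deposited table ERF112, at 3.35 FPKM in air and 5.50 FPKM under ethylene, was the 1 gene higher at an unadjusted p under 0.05, and under the normal reading 0 were called in either direction. The gene called lower was ERF106 of group IX, which measured 44.4 FPKM in air against 27.4 FPKM under ethylene, with a log2 ratio of -0.70 (standard error 0.249). Its Cuffdiff q in the authors' deposited table was 0.00366, and the call is lost under the normal reading. Another 4 genes that the annotation places in an ERF subfamily class, outside the members and these 24 genes, were not tested.

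Upstream of the ERF genes, 7 of 12 receptor and signalling genes were called higher and none lower, beside 4.81% and 6.46% of all tested entries. The ethylene receptor genes ETR2 and ERS2 rose 5.78-fold and 3.13-fold, and RTE1, a regulator of the receptor ETR1, rose 3.89-fold. The transcript of EIN3, the direct activator of ERF1, measured 97.4 FPKM against 97.6 FPKM and was not called. Of 7 GCC-box defence targets 3 were tested and 2 were called higher, too few genes to set against the share of all tested entries. The defensin gene PDF1.1 measured 15.8 FPKM in air against 69.7 FPKM under ethylene, and PR4, which encodes a hevein-like protein, measured 147 FPKM against 406 FPKM. The other 4 defensin genes, PDF1.2, PDF1.2b, PDF1.2c and PDF1.3, were listed at 0 in both conditions, and reads of such close copies may be split uncertainly.

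Hypoxia targets of group VII gave 2 calls of 11, both higher, and 1 under the normal reading, where 4.81% and 2.65% of all entries were called higher. Nothing particular to the list is read from these counts of calls. Of the 11 genes, 9 had a higher and 2 a lower value under ethylene. The lower value of the listed gene LBD41 comes from an entry that also names AT3G02540. At an unadjusted Cuffdiff p under 0.05, 5 of the 11 were higher and 0 lower. The share of all entries at that unadjusted p is not given here, so these 5 genes were not set against it. PGB1, the hypoxia-inducible haemoglobin, measured 9.70 FPKM in air against 35.8 FPKM under ethylene. PCO1, a cysteine oxidase that marks group VII proteins for degradation, measured 5.97 FPKM against 11.6 FPKM, a call that is lost under the normal reading. ADH1, the alcohol dehydrogenase of fermentation, measured 28.9 FPKM against 29.4 FPKM and was not called. Cuffdiff called 0 of the 6 genes of group VII turnover and 0 of the 8 EAR co-repressor and deacetylase genes. Among all tested entries it called 4.81% higher and 6.46% lower. The normal reading also gave 0 calls, beside 2.65% higher and 3.26% lower of all entries with a numeric statistic. In the authors' deposited table none of these genes had an unadjusted Cuffdiff p under 0.05. With so few genes, nothing particular to either list is read from these counts. Of the turnover genes, the E3 ligase gene PRT6 measured 24.8 FPKM against 24.3 FPKM and the oxidase gene PCO5 22.9 FPKM against 24.6 FPKM. The co-repressor gene TPL measured 62.6 FPKM in both conditions, and the deacetylase gene HDA19, whose entry also names AT4G38120, measured 68.8 FPKM against 71.9 FPKM.

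The tissue label was checked against markers, of which none was at 0. The dark-growth gene PORA measured 397 FPKM in air against 583 FPKM under ethylene, and PHYA, the light-labile photoreceptor, 241 FPKM against 215 FPKM. The epidermal ATML1 measured 43.7 FPKM against 54.9 FPKM, and the endodermal CASP1 and SCR measured 236 and 20.8 FPKM against 316 and 23.3 FPKM. The root hair gene EXPA7 measured 10.8 FPKM against 27.1 FPKM. Of these 6 markers 5 had a higher value under ethylene. PORA and EXPA7 were called higher (PORA not under the normal reading), and PHYA, ATML1, CASP1 and SCR were not called. The sum of the 6 was 949 FPKM in air and 1218 FPKM under ethylene, of which PORA alone gave 397 and 583 FPKM. The light-induced ELIP1 and ELIP2 measured 19.2 and 7.49 FPKM in air against 11.3 and 4.57 FPKM, and ELIP1 was called lower, though not under the normal reading. The part of these markers in the ERF results was not tested.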

How the data were processed

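RNA was sequenced from 4 libraries, 2 per condition. Per the submitters' processing notes, TopHat2 2.0.9, Cuffdiff 2.2.1 and TAIR10 were used. Parameters, annotation and strand setting are not stated in the labels. The authors deposited 1 pooled FPKM value per condition and entry, per the file headers. The deposited p-value and q-value are the authors' Cuffdiff test, and the deposited test statistic is a signed score. The authors' log2 fold column holds cells turned into text and was not used. The labels do not say whether libraries came from separate plantings, so the spread behind p may be technical.

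For each locus the entry naming it alone was used, then the one with the higher mean. Log2 changes use a pseudocount of 1 FPKM. The deposited q equalled a recomputed Benjamini-Hochberg adjustment to within 5.25e-07, and the smallest p, 5e-05, is shared by 1200 entries. The adjustment was tested on simulated data. All members are accounted for. From the pathway lists, up to 3 called genes per direction with the largest change are named, or 2 of the highest level where none was called. EIN3, ADH1, ERF107, ERF112 and the PDF genes at 0 were added after their values were seen, as were the 4 further class B-6 genes. Members and lists were chosen with earlier results of these data known, and the motif letters were chosen after the table was seen. Sequences, coordinates and motif windows come from the RefSeq TAIR10.1 genome by locus, with the longest coding sequence of each gene. Alternatives were another reading of the statistic, a stricter q, re-adjustment over fewer entries, other pseudocounts and rescaling. Python 3.11.15, pandas 2.3.3, numpy 2.4.6, SciPy 1.17.1 and matplotlib 3.10.9 were used.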

Additional observations from a re-analysis of the deposited data

How the results depend on the processing

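No paired analysis was possible because the deposited table pools the replicates of each condition, and for the same reason no library could be left out. The count of 12 members called higher and 0 lower was also obtained after re-adjusting p over entries naming a gene. Re-adjusting over entries at 1 FPKM or more gave that count too. Taking the entry of highest mean for each locus picked the same entry for every member, so it could not change the count. At a q of 0.01 or less, 10 were higher and 0 lower, ERF2 and ERF11 having lost their call. Read against a normal curve, the statistic gave 11 higher and 0 lower. That reading was tried because quantiles of the deposited p were, at the median, 1.43 times the statistic, and which column has the intended scale is unknown. The median log2 change of the 37 members, 0.21, was 0.39 with a pseudocount of 0.1 FPKM and 0.09 with 5 FPKM. Among the 30 members at 1 FPKM or more in either condition it was 0.46. ERF1, ERF2, ERF11, ERF13, ERF15, HRE1, ABR1 and ERF115 pass that filter only through ethylene. No member passes it only through air, so the filter favours risers. A pseudocount cannot reverse a member's direction. Rescaling the conditions shifted log2 ratios by 0.011 and -0.009, too little to reverse any member. These settings therefore do not test direction. Depth is unknown, so no detection limit can be given for the 7 members under 1 FPKM in both conditions.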
